A study of Mus musculus with 8 samples.

Results

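The angiopoietin and Tie genes described here are Angpt1 and Angpt2, which encode ligands, Tek (also called Tie2) and Tie1, which encode receptors, and Svep1, which encodes an extracellular matrix protein that binds TIE1. They were chosen by symbol in the gene list of the second run and matched to the first run by gene identifier, which gave 5 genes of the 30406 identifiers that both runs list. Angiopoietin-1 is made mainly by mural cells and activates the receptor encoded by Tek on endothelial cells, which keeps vessels quiescent. Angiopoietin-2 is released by endothelial cells themselves. It can oppose angiopoietin-1 on blood vessels and acts as an activating ligand on lymphatic endothelium, where the phosphatase encoded by Ptprb, which dampens the receptor, is known to be low. TIE1 has no angiopoietin of its own and works together with the Tek receptor, and SVEP1 is known for its part in the growth of lymphatic vessels.

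All animals were male and of the genotype ROSA26-eYFP+/+ Cdh5-CreERT2+, where tamoxifen starts YFP through a Cre that the endothelial promoter of Cdh5 drives. Tamoxifen was given in food at 6 weeks of age for 2 weeks, to every group. From 8 weeks of age the mice ate normal chow with 5.8% fat or a high fat diet with 60% fat for 12 to 13 weeks. YFP-positive cells were sorted from the mesentery or from the epididymal adipose tissue of 6 mice pooled per library, in the presence of actinomycin D, an inhibitor of transcription, and 10x Genomics 3′ libraries were made. The 4 groups were mesentery on chow, mesentery on high fat diet, adipose on chow and adipose on high fat diet, each with the libraries of runs A and B, so n is 2 pools per group.

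The runs differed in depth, and within run A so did the tissues. Median UMIs per barcode in run A were 2675 and 2173 in mesentery on chow and high fat diet, and 1173 and 1160 in adipose. Run A libraries had 1352 to 2780 barcodes and run B libraries 3189 to 6218, the median UMIs per barcode were 1160 to 2675 in run A and 3169 to 4324 in run B, and a limit of 10% mitochondrial counts removed 20.1 to 29.9% of barcodes in run A and 5.2 to 8.2% in run B. No pair of libraries shared more than 9 cell barcodes. Of 23123 cells analysed, 15687 were blood endothelial cells and 3001 were lymphatic-like, and the rest were mural-like, fibroblast-like or immune cells that passed the sort and 819 cells of cluster 12. Of the blood endothelial cells, 5027 were in clusters without a class name. Cluster 3, with 2273 of them, was led by haemoglobin genes and had 0.32 of the median UMIs of its libraries. At a clustering resolution of 2.0, 857 endothelial cells without a class name were led by Crisp1 and Spink8. Mesentery and adipose on chow B held 298 and 549 of them, and on high fat diet B 2 and 1. Fits on named clusters alone are given with the processing. By its markers cluster 12 met the limits for mesothelial-like cells, but 8 adipocyte markers summed to 53235.9 and 48390.6 CPM in its run B libraries of mesentery and adipose on chow, which hold 401 and 379 of its cells. At a clustering resolution of 2.0, 795 of the 819 cells were adipocyte-like and 24 mesothelial-like, so it is left without a name here. Cell classes were named from marker lists that hold none of the 5 genes. Levels are given as CPM (counts-per-million), the UMIs of a gene scaled to the UMIs of all cells of a class in a library. They can be set side by side between classes and libraries, not between genes. In such sums, fewer cells that express a gene and less of its RNA per cell cannot be told apart.

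The 5 genes lie in the GRCm38 (mm10) annotation at chr15:42424723-42676977 on the minus strand for Angpt1, chr8:18690263-18741562 on the minus strand for Angpt2, chr4:94739289-94874976 on the plus strand for Tek, chr4:118471191-118490061 on the minus strand for Tie1 and chr4:58042442-58206859 on the minus strand for Svep1. Tek is the gene that set blood and lymphatic endothelial cells apart most clearly among the receptors, so its promoter is shown. The 250 bases just before the annotated start, at chr4:94739039-94739288 on the plus strand (RefSeq, GRCm38.p6), read as follows, with capitals for GGAA or its reverse complement TTCC, the core to which ETS factors bind.

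Tek upstream window: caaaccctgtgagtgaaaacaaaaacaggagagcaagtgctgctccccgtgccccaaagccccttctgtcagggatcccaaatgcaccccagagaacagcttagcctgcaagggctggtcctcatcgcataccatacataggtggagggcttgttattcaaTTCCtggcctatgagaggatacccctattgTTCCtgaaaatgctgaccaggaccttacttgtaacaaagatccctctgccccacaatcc

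On both strands the window held 2 matches to GGAA. The median over 32851 mouse promoter windows of 250 bases was 3, and 93.4% of them held at least 1 match, so these letters are common. The window held 0 matches to GTAAACA, a forkhead core found in 3.2% of promoters. It also held 0 matches to AGATAAG, a core known from zinc finger factors of endothelial and blood cells, found in 2.7%. These are descriptions of letters in 1 window and say nothing of binding.

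Tek was present in every class of blood endothelial cells and lower in lymphatic-like cells. In blood endothelial cells its level was 205.6 and 234.7 CPM in mesentery on chow A and B, 197.7 and 253.5 CPM in mesentery on high fat diet, 177.0 and 193.1 CPM in adipose on chow, and 175.2 and 213.3 CPM in adipose on high fat diet. Run B was higher than run A in each of the 4 groups, and within each run mesentery lay above adipose on both diets. On chow this order of the tissues was not kept in every class. Capillary-like cells of run A had 160.3 CPM in mesentery and 187.0 CPM in adipose, and arterial-like cells of run B 252.4 and 285.3 CPM. In every other pair of same-run libraries of arterial-like, capillary-like and venous-like cells mesentery was the higher. Arterial-like cells had 206.3 to 285.3 CPM (median 257.2), venous-like cells 169.1 to 343.8 CPM (median 228.2) and capillary-like cells 160.3 to 246.5 CPM (median 187.2). These ranges overlapped, although arterial-like cells were above capillary-like cells in 8 of 8 libraries. Among arterial-like cells, cluster 9, led by Gkn3 and Dkk2, had a median of 304.2 CPM and cluster 4, led by Alox12 and Col8a1, a median of 241.7 CPM.

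In lymphatic-like cells Tek was at 48.8 to 118.1 CPM, with a median of 72.9 CPM, below the blood endothelial level of the same library in 8 of 8 libraries and without overlap of the ranges. The run A libraries had 48.8 to 69.0 CPM and the run B libraries 76.8 to 118.1 CPM, so the runs did not overlap while the groups did. Once every cell was thinned to 1000 UMIs, 7.37% of lymphatic-like cells and 18.4% of blood endothelial cells had a Tek UMI, beside 0.58% of B-like cells, a class that should lack it. Without thinning the shares were 20.43%, 49.41% and 1.1%, at median depths of 2727, 3702 and 2235 UMIs. The lowest lymphatic-like Tek was in cluster 14, at 42.9 to 44.5 CPM in the 3 libraries with at least 20 of its cells.

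Tie1 did not separate the endothelial classes in this way. Its range was 181.3 to 308.3 CPM in blood endothelial cells (median 245.3) and 220.8 to 439.8 CPM in lymphatic-like cells (median 298.6), with lymphatic-like cells higher in 7 of 8 libraries and overlapping ranges. Arterial-like cells had a median of 305.6 CPM, capillary-like cells 295.7 CPM and venous-like cells 227.1 CPM. Venous-like cells were below capillary-like cells in 8 of 8 libraries, with ranges that overlapped. After thinning, 26.2% of lymphatic-like, 23.05% of blood endothelial and 0.87% of B-like cells had a Tie1 UMI, against 54.98%, 57.44% and 1.92% before thinning.

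**Figure D1:**
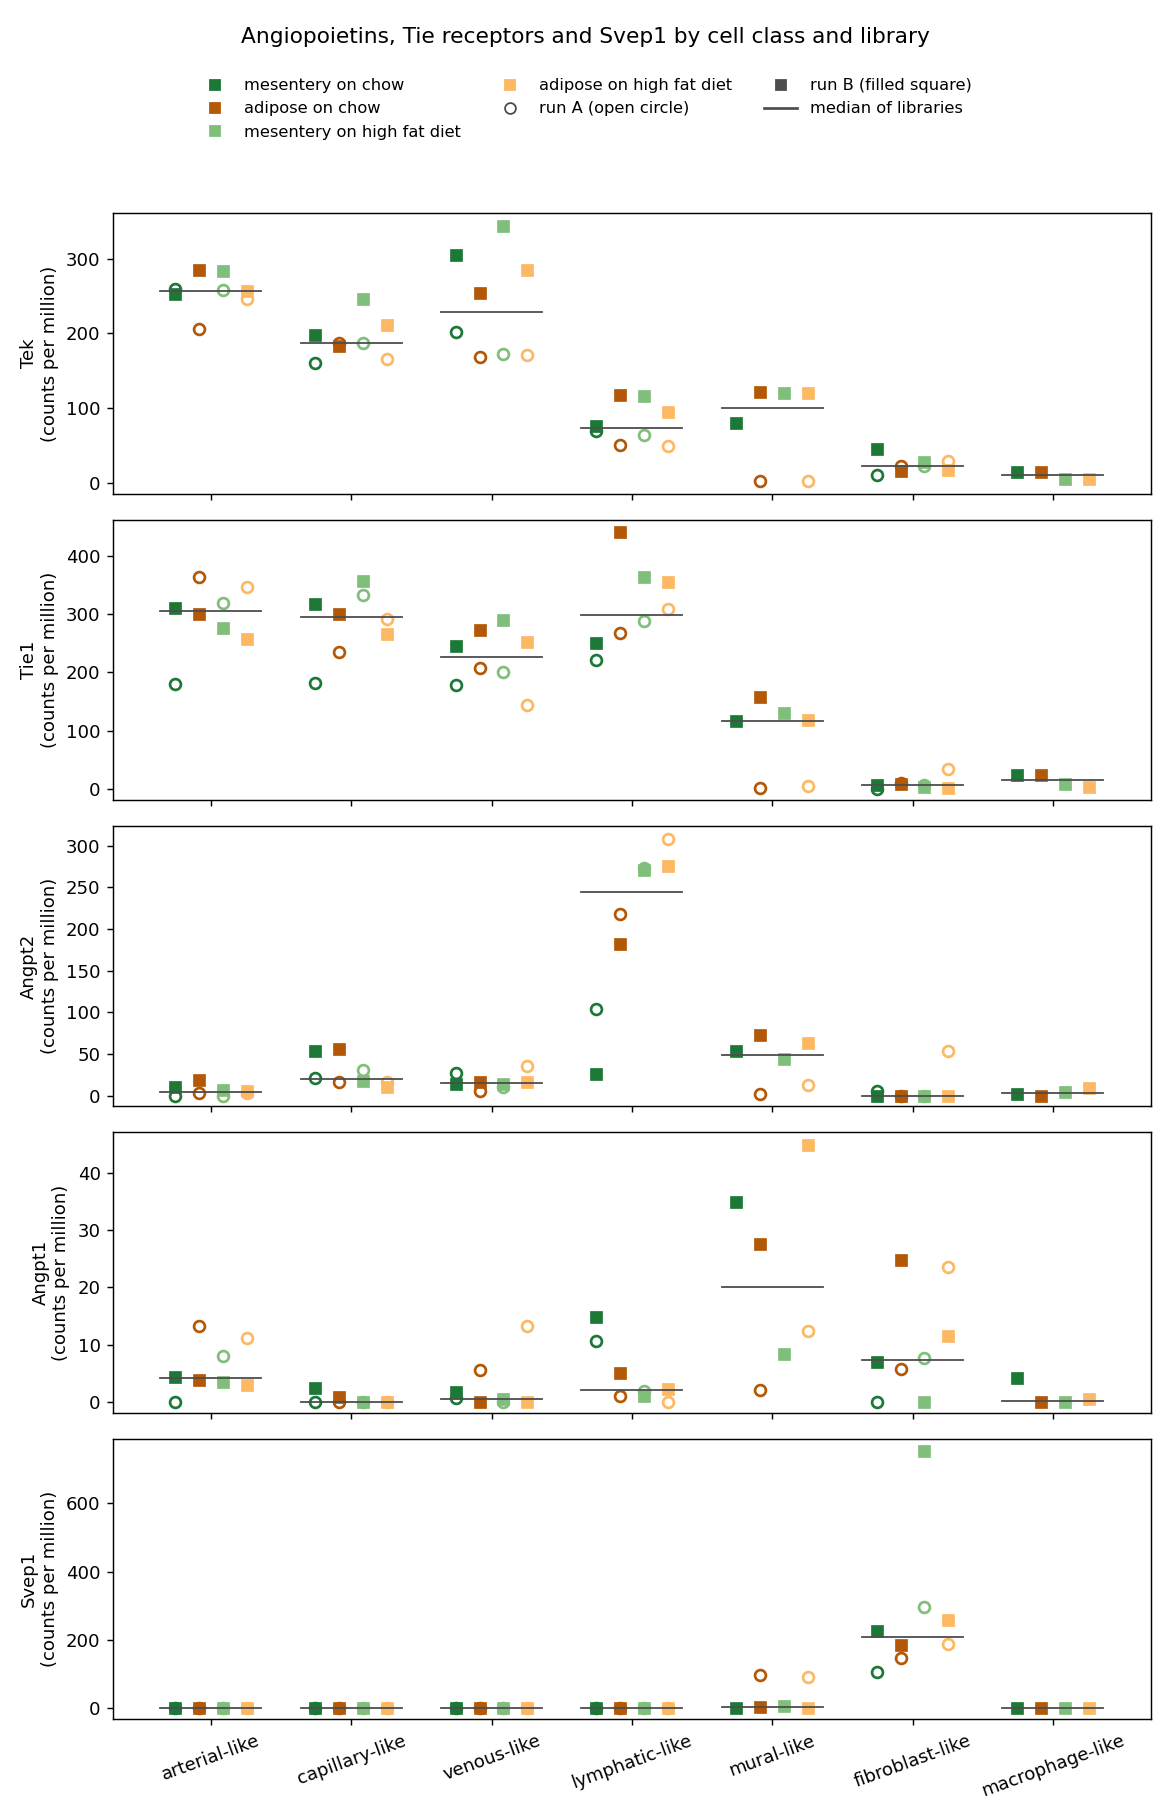
Level of each gene in CPM (vertical axes, a separate linear scale per gene) for 7 cell classes (horizontal axis); each point is a library with at least 20 cells of the class, open circles are run A, filled squares run B, colours are the 4 groups and the line is the median over libraries. Tek is high in the blood endothelial classes and lower in lymphatic-like cells, Angpt2 is highest in lymphatic-like cells at 25.8 to 308.3 CPM, and Svep1 lies in fibroblast-like cells at 105.5 to 751.3 CPM.

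Angpt2 had its highest class level in lymphatic-like cells. Over the 8 libraries it was at 25.8 to 308.3 CPM there (median 244.0), against 11.8 to 44.2 CPM in blood endothelial cells (median 25.0), and it was higher in 7 of 8 libraries, the exception being mesentery on chow B. Capillary-like cells had 9.9 to 55.6 CPM, venous-like cells 5.6 to 35.1 CPM and arterial-like cells 0.0 to 18.2 CPM, and these 3 ranges overlapped. Arterial-like cells lay below capillary-like cells in 8 of 8 libraries and below venous-like cells in 7 of 8, the exception being adipose on chow B. In run A these arterial-like values rest on 0 or 1 UMIs per library and the capillary-like values on 2 to 4. After thinning to 1000 UMIs, 12.9% of lymphatic-like, 3.27% of capillary-like, 0.77% of arterial-like and 0.29% of B-like cells had an Angpt2 UMI, beside 24.46%, 13.37%, 3.22% and 0.55% without thinning. The B-like share rests on 2 cells with a UMI before thinning.

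The lymphatic-like class was not uniform. Cluster 5, led by Reln, Ccl21a and Mmrn1, had a median of 232.8 CPM of Angpt2, and cluster 13, led by Ackr4 and Sbspon among others, had 305.2 CPM. Cluster 14, led by Marco and Clec4g, had 10.9, 25.1 and 71.6 CPM in the 3 libraries that held at least 20 of its cells, all from mesentery. Outside the lymphatic-like class, cluster 23, singled out after its values were seen, held 198 endothelial cells without a class name, led by Chga, Prnd, Apln and Pgf. It had 79.9 to 135.8 CPM of Angpt2 in the 3 libraries with at least 20 of its cells, and 12.82% of its cells had an Angpt2 UMI after thinning, beside 12.9% of lymphatic-like and 0.29% of B-like cells. Without thinning the share was 44.44%, at a median depth of 6364.5 UMIs. Its Tek was at 76.4 to 111.3 CPM in those libraries, below the blood endothelial range, and its Tie1 at 275.0 to 363.3 CPM.

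Angpt1 was scarce in every sorted class. Blood endothelial cells held 225 of its UMIs in all 8 libraries together, at 0.9 to 7.0 CPM. Mural-like cells, the cells known to make it, had 34.9 CPM in mesentery on chow B, 8.4 CPM in mesentery on high fat diet B, 2.1 and 27.6 CPM in adipose on chow A and B, and 12.4 and 44.8 CPM in adipose on high fat diet A and B. The run A values rest on 2 and 4 UMIs, and the other 2 libraries of run A held under 20 mural-like cells. Mural-like cells of run B also carried endothelial RNA: the 8 endothelial markers summed to 3222.5 to 4401.1 CPM there and to 260.8 to 374.2 CPM in run A, and Tek was at 79.8 to 121.3 CPM in run B and 2.1 to 3.1 CPM in run A. Angpt2 was likewise at 44.4 to 73.1 CPM in run B and 2.1 to 12.4 CPM in run A. The part of that RNA in the mural-like values of Tek, Tie1 and Angpt2 was not tested.

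Angpt1 was also found in endothelial clusters, of which 17 and 14 are named after their values were seen. Cluster 17, 423 cells led by Klk10, Adh7 and Mfap5 with no class name, held 64 of its UMIs, with a median of 19.3 CPM over the 6 libraries with at least 20 of its cells. Cluster 14 of the lymphatic-like class held 70 UMIs, at 25.1 CPM in mesentery on chow A, 17.8 CPM in mesentery on chow B and 14.3 CPM in mesentery on high fat diet A. Clusters 5 and 13 held 9 UMIs each. Lymphatic-like cells as a whole therefore had 10.7 and 14.8 CPM of Angpt1 in mesentery on chow and 0.0 to 5.0 CPM in the other 6 libraries, a gap that moves with the number of cluster 14 cells and was too low in counts to be tested. At a clustering resolution of 2.0, a cluster of 426 cells led by Klk10 and Adh7 met the arterial limits, with 7 markers raised. It stayed unnamed there because its leading genes held more markers of another class.

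Svep1 was a gene of fibroblast-like cells in these samples. They held 813 of its UMIs, at 105.5 and 226.0 CPM in mesentery on chow A and B, 296.5 and 751.3 CPM in mesentery on high fat diet, 147.4 and 185.0 CPM in adipose on chow and 189.1 and 258.1 CPM in adipose on high fat diet. The high fat diet library was above the chow library of the same run in both tissues. The mix of clusters moved with it: in mesentery on chow cluster 16, led by Clec3b and Lum, held 7 of 76 fibroblast-like cells in run A and 53 of 185 in run B, and on high fat diet 13 of 44 and 29 of 38. Within cluster 16 Svep1 was at 596.3 CPM in the run B library of mesentery on chow and 1010.4 CPM in that of mesentery on high fat diet. No diet test was made on fibroblast-like cells, which are bystanders of the sort. Lymphatic-like cells held 2 Svep1 UMIs among 3001 cells, and blood endothelial cells 42 among 15687, too few for a test. In mural-like cells Svep1 was at 96.1 and 92.8 CPM in the adipose libraries of run A and 0.0 to 5.4 CPM in the libraries of run B. The fibroblast marker list was at 6586.6 and 7211.6 CPM in those run A cells and at 869.6 to 1482.2 CPM in run B, and its part in the Svep1 level was not tested. At a clustering resolution of 2.0, 157 of the 381 mural-like cells of adipose on chow A and 27 of the 121 of adipose on high fat diet A were named fibroblast-like instead. The cells that stayed mural-like there had 92.0 and 86.2 CPM of Svep1.

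Across the 72 sums of a class in a library, the genes whose log2 level followed Tie1 most closely among 9169 genes were Egfl7 (Pearson r 0.968), Ccm2l (0.954) and Mmrn2 (0.953). For Tek they were Bvht (0.932), Ptprm (0.925) and Cdh5 (0.922), the gene of VE-cadherin. For Angpt2 they were Klhl4 (0.808), Nectin2 (0.76) and Pcdh12 (0.752), and for Svep1 Dpep1 (0.972), Srpx (0.962) and Tenm2 (0.937). For Angpt1 the closest were Spon1 (0.633), Lmod1 (0.624) and Parm1 (0.608). Tek and Tie1 were at 0.886 with each other, Angpt2 and Tie1 at 0.645, and Angpt2 and Tek at 0.455. The sums, of which 3 are of cluster 12, share libraries, depth and the split into endothelial and other cells, so these values are descriptions.

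Blood endothelial cells were tested first, for the effect of diet in each tissue and of tissue on each diet. Neither receptor and neither angiopoietin passed an adjusted p of 0.05 in edgeR's quasi-likelihood test with Benjamini-Hochberg adjustment over 13101 genes. The test called 0 genes in each of the 5 comparisons (0% of the genes tested), with 30 to 289 genes at an unadjusted p under 0.05. With the run as a block diet called 4 genes in mesentery (0.0305%) and 9 in adipose (0.0687%), tissue called 26 on chow (0.198%) while 1 was called on high fat diet (0.00763%), and the interaction called 0 (0%), and none of them was an angiopoietin or a Tie receptor. Adjusted p of the 4 tested genes was 1 without the block and 0.776 to 1 with it. Svep1 had too few counts to be tested.

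For Tek, the log2 difference of high fat diet over chow was 0.02 ± 0.25 (SE) in mesentery and 0.11 ± 0.26 in adipose. Mesentery over adipose was 0.29 ± 0.26 on chow and 0.20 ± 0.26 on high fat diet. For Tie1, the diet difference was 0.27 ± 0.28 in mesentery and -0.05 ± 0.28 in adipose, and the tissue difference -0.16 ± 0.28 on chow and 0.16 ± 0.28 on high fat diet. None of these passed the threshold, and the interaction of tissue and diet was -0.09 ± 0.36 for Tek and 0.33 ± 0.39 for Tie1.

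Angpt2 in blood endothelial cells was at 21.8 and 28.2 CPM in mesentery on chow A and B, 15.9 and 17.9 CPM in mesentery on high fat diet, 29.8 and 43.4 CPM in adipose on chow and 44.2 and 11.8 CPM in adipose on high fat diet. In mesentery both runs had less of it on high fat diet, with a log2 difference of -0.56 ± 0.59, while in adipose run A was higher and run B lower, with -0.38 ± 0.59. Tissue differences were -0.52 ± 0.58 with chow and -0.70 ± 0.61 with high fat diet, and the interaction was -0.18 ± 0.84. Angpt1 differed with diet by -0.83 ± 1.30 in mesentery and -0.36 ± 1.31 in adipose. Its tissue differences were 0.03 ± 1.21 for tissue on chow and -0.44 ± 1.38 for tissue on high fat diet, with an interaction of -0.47 ± 1.84. Their standard errors exceed a 2-fold change, so a change of that size in Angpt1 was not detectable at this depth.

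**Figure D2:**
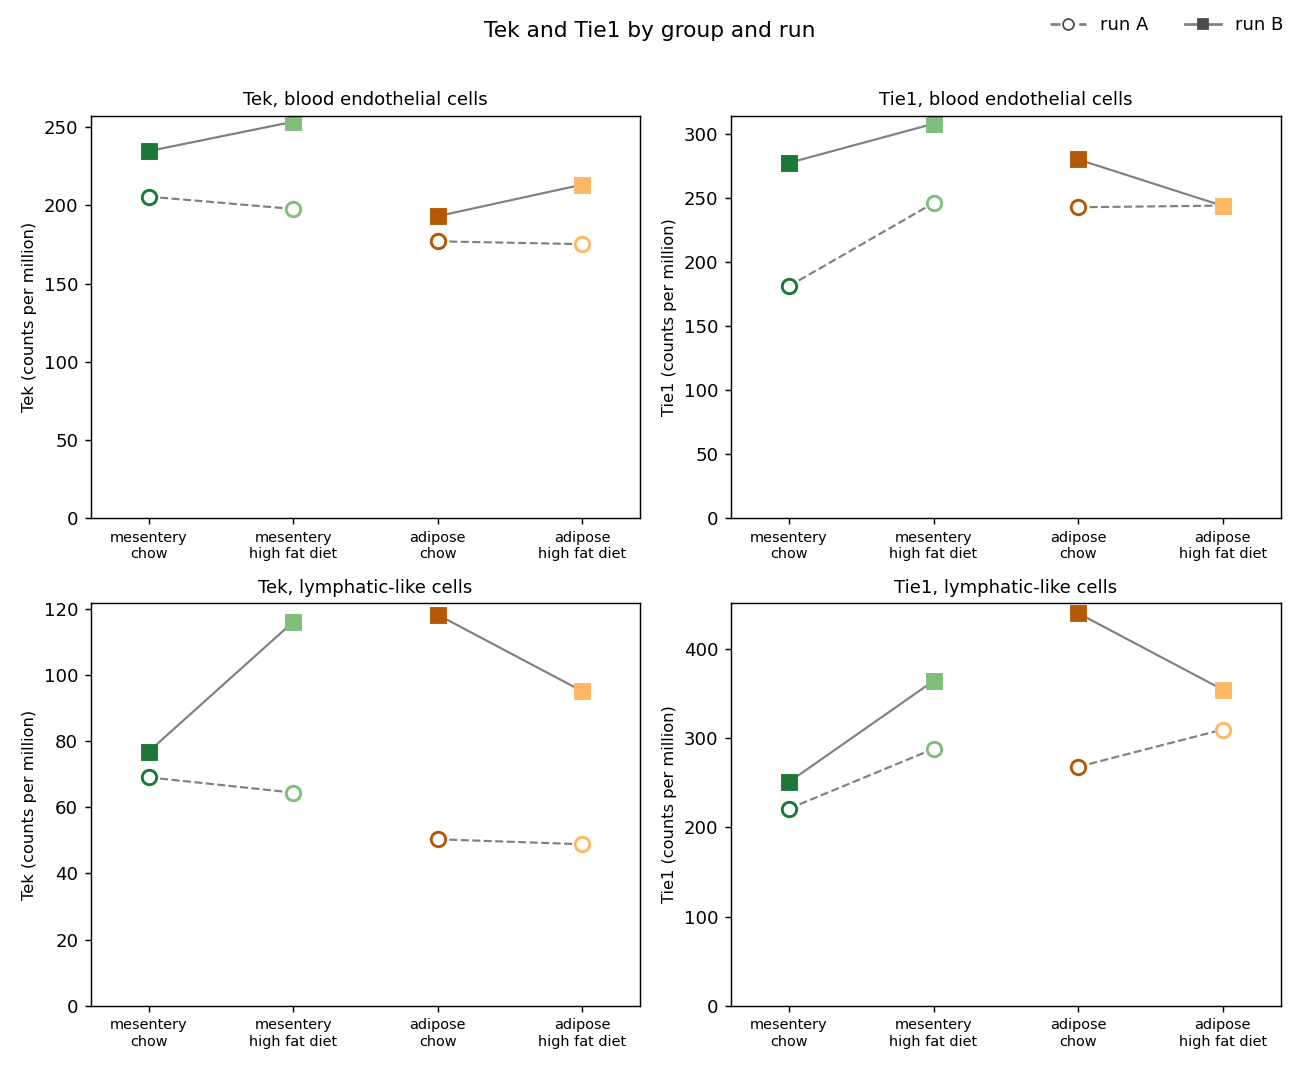
Level of Tek and Tie1 in CPM (vertical axes) in blood endothelial cells and lymphatic-like cells for the 4 groups (horizontal axis); each point is a library, open circles and dashed lines are run A, filled squares and solid lines run B, and lines join chow to high fat diet in a tissue. Tek of lymphatic-like cells is higher in run B (76.8 to 118.1 CPM) than in run A (48.8 to 69.0 CPM) in each group.

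In lymphatic-like cells Tek, Tie1 and Angpt2 could be tested, and Angpt2 alone passed a test, with the run as a block. It was at 104.3 and 25.8 CPM in mesentery on chow A and B, from 136 and 110 UMIs, and at 272.7 and 270.6 CPM in mesentery on high fat diet, from 432 and 238 UMIs. In adipose it was at 217.4 and 182.2 CPM on chow and 308.3 and 275.5 CPM on high fat diet, from 145 to 259 UMIs. The libraries of mesentery on chow were the lowest 2 of the 8 and did not overlap any other group.

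The diet difference in mesentery was 2.09 ± 0.58 on the log2 scale and missed the threshold in edgeR's test, with an adjusted p of 0.262, where 0 of 9029 genes were called (0%) and 780 had an unadjusted p under 0.05. With the run as a block it was 2.29 ± 0.39, and Angpt2 rose with an edgeR adjusted p of 0.00508, among 563 called genes (6.24%), 2.26% being called higher. DESeq2 without the block gave an adjusted p of 0.0277. Under the block Angpt2 stayed called without any 1 library, with an edgeR adjusted p of 2.03e-07 to 0.0165 and a difference of 1.49 without mesentery on chow B to 3.28 without mesentery on chow A. Where a mesentery library was left out, 1 pool stood for its group and was assumed to vary as the other groups do, so these p-values are no measure of spread within that group. Diet in adipose gave 0 calls (0%) without and with the block, although Angpt2 was higher on high fat diet in both runs.

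Mesentery was below adipose on chow in lymphatic-like cells, with an Angpt2 log2 difference of -1.63 ± 0.58 and an edgeR adjusted p of 0.297, where 163 genes were called (1.81%). With the block it was -1.81 ± 0.39 with an edgeR adjusted p of 0.0115, where 831 were (9.2%), 3% being called lower. The blocked call was lost without adipose on chow A (adjusted p 0.0671) and without adipose on chow B (0.131). On high fat diet mesentery and adipose did not differ past the threshold, with a log2 difference of -0.09 ± 0.56, and edgeR called 0 genes (0%) without the block and 10 (0.111%) with it. The interaction, which asks whether the diet difference itself differs between the tissues, was 1.54 ± 0.80 for Angpt2 with an edgeR adjusted p of 1, and 1.73 ± 0.53 with 0.227 under the block, so a difference between the tissues in the diet effect was not shown. The blocked interaction passed only when mesentery on chow A was left out (2.73, edgeR adjusted p 0.000159), with 1 pool for that group.

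The make-up of the class moved with these values. Cluster 14, which is low in Angpt2, was 24.0% and 58.9% of lymphatic-like cells in mesentery on chow A and B, 7.2% and 1.5% in mesentery on high fat diet, and it held no cell of adipose. At a clustering resolution of 2.0 mesentery on chow A and B held 400 and 519 lymphatic-like cells, beside 446 and 722 here. A cluster of 268 mesentery cells led by Coch and Ccl20 had no class name at that resolution and counted among blood endothelial cells. Without cluster 14 the diet difference in mesentery was 1.40 with an edgeR adjusted p of 0.999, and 1.48 with 0.0015 under the block. The tissue difference on chow was then -0.86 with an adjusted p of 1, and -0.94 with 0.0615 under the block, so that blocked call depended on cluster 14. Within cluster 5 alone Angpt2 was at 106.9 and 37.6 CPM in mesentery on chow A and B, 262.0 and 258.6 CPM in mesentery on high fat diet, 209.5 and 143.2 CPM in adipose on chow and 285.7 and 256.0 CPM in adipose on high fat diet. Within cluster 13 it was at 324.3 and 92.5 CPM in mesentery on chow and 468.2 and 307.3 CPM on high fat diet. In both clusters the high fat diet library was above the chow library of its run in mesentery by CPM. In cluster 13 the thinned share of cells with a UMI was 21.15% on chow and 26.53% on high fat diet in run A, but 15.25% and 14.58% in run B, so no order is read from cluster 13 in run B.

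The 7 lymphatic markers moved in the same direction in the class as a whole. Their summed level was 16950.1 and 10587.4 CPM in mesentery on chow A and B, 26212.5 and 37431.6 CPM in mesentery on high fat diet and 32346.4 to 51593.9 CPM in adipose, and its part in the lymphatic-like Angpt2 differences was not tested. Tek and Tie1 in lymphatic-like cells were not called in any of the 5 comparisons with or without the block. Tie1 was at 220.8 and 250.7 CPM in mesentery on chow and 267.7 to 439.8 CPM in the other 6 libraries, again with mesentery on chow lowest. In cluster 5 this gap was absent, with Tie1 at 315.8 and 428.5 CPM in mesentery on chow and 260.9 to 438.6 CPM elsewhere.

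**Figure D3:**
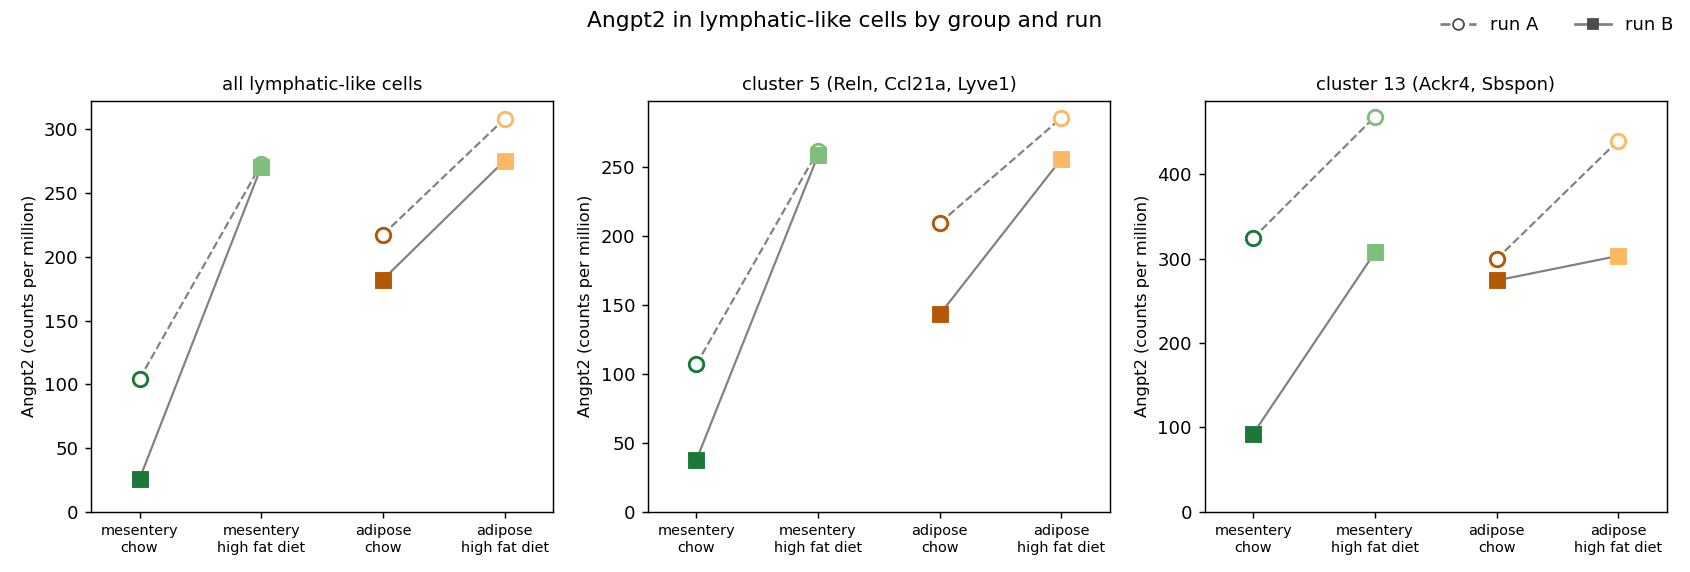
Angpt2 in CPM (vertical axes) in all lymphatic-like cells, in cluster 5 and in cluster 13 for the 4 groups (horizontal axis); points are libraries with at least 20 cells, open circles with dashed lines run A and filled squares with solid lines run B, and lines join chow to high fat diet. Mesentery on chow is lowest in all lymphatic-like cells (104.3 and 25.8 CPM) and in cluster 5 (106.9 and 37.6 CPM), while in cluster 13 its run A library, at 324.3 CPM, is not.

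Capillary-like cells showed the opposite direction of Angpt2 with diet, in run B. There it was at 53.0 CPM in mesentery on chow, 17.8 CPM in mesentery on high fat diet, 55.6 CPM in adipose on chow and 9.9 CPM in adipose on high fat diet, from 59 to 788 UMIs. The run A values, 21.4, 31.2, 16.3 and 16.2 CPM in the same order, rest on 2 to 4 UMIs each. In adipose the log2 difference of high fat diet over chow was -1.77 ± 0.68 with an edgeR adjusted p of 1, where 0 of 10419 genes were called (0%) and 106 had an unadjusted p under 0.05. With the run as a block Angpt2 fell by 2.11 ± 0.45 on the log2 scale, with an edgeR adjusted p of 0.00186, among 119 called genes (1.14%), 0.729% being called lower. The blocked call needed both run B libraries of adipose: without the chow library the difference was -0.47 and without the high fat diet library -0.73, with edgeR adjusted p of 0.99 and 0.994. It was also lost without mesentery on chow B (-2.08, adjusted p 0.155) and without mesentery on high fat diet B (-2.11, adjusted p 0.147). In mesentery the blocked difference was -1.34 ± 0.45 with an adjusted p of 0.295, and the interaction was 0.76 ± 0.63 with 1. Diet in mesentery called 0 genes (0%) without the block and 70 (0.672%) with it. Tissue called 26 with the block on chow (0.25%) and 12 on high fat diet (0.115%), Angpt2 not among them.

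The capillary-like class held 2 clusters whose balance changed between the libraries. Cluster 2, led by Mmp11, Medag and Slc1a1, made up 1691 of the 2011 capillary-like cells of adipose on chow B and 66 of the 1043 of adipose on high fat diet B. Over the 5 libraries with at least 20 of its cells, cluster 2 had 21.7 to 60.1 CPM of Angpt2, and cluster 1, led by Car4 and Fabp5, had 0.0 to 42.3 CPM over 8 libraries. Within cluster 1, Angpt2 in run B was at 31.1 CPM in adipose on chow and 8.7 CPM on high fat diet, and at 42.3 and 15 CPM in mesentery. Within cluster 2, run B had 58.7 CPM in adipose on chow and 31.9 CPM on high fat diet, the latter from 10 UMIs, and 60.1 and 51.1 CPM in mesentery. In these 4 comparisons of run B the high fat diet value was the lower.

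Adipocyte RNA moved with the same libraries. The 8 adipocyte markers summed to 3589.4 CPM in mesentery and 4113.4 CPM in adipose in the capillary-like cells of the run B chow libraries, against 254.8 and 86.1 CPM in the high fat diet libraries of that run and 0.0 to 439.0 CPM in run A. All 8 markers had counts in the 4 run B libraries, and all 8 were at 0 in mesentery on high fat diet A. Their part in the capillary-like Angpt2 difference was not tested.

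**Figure D4:**
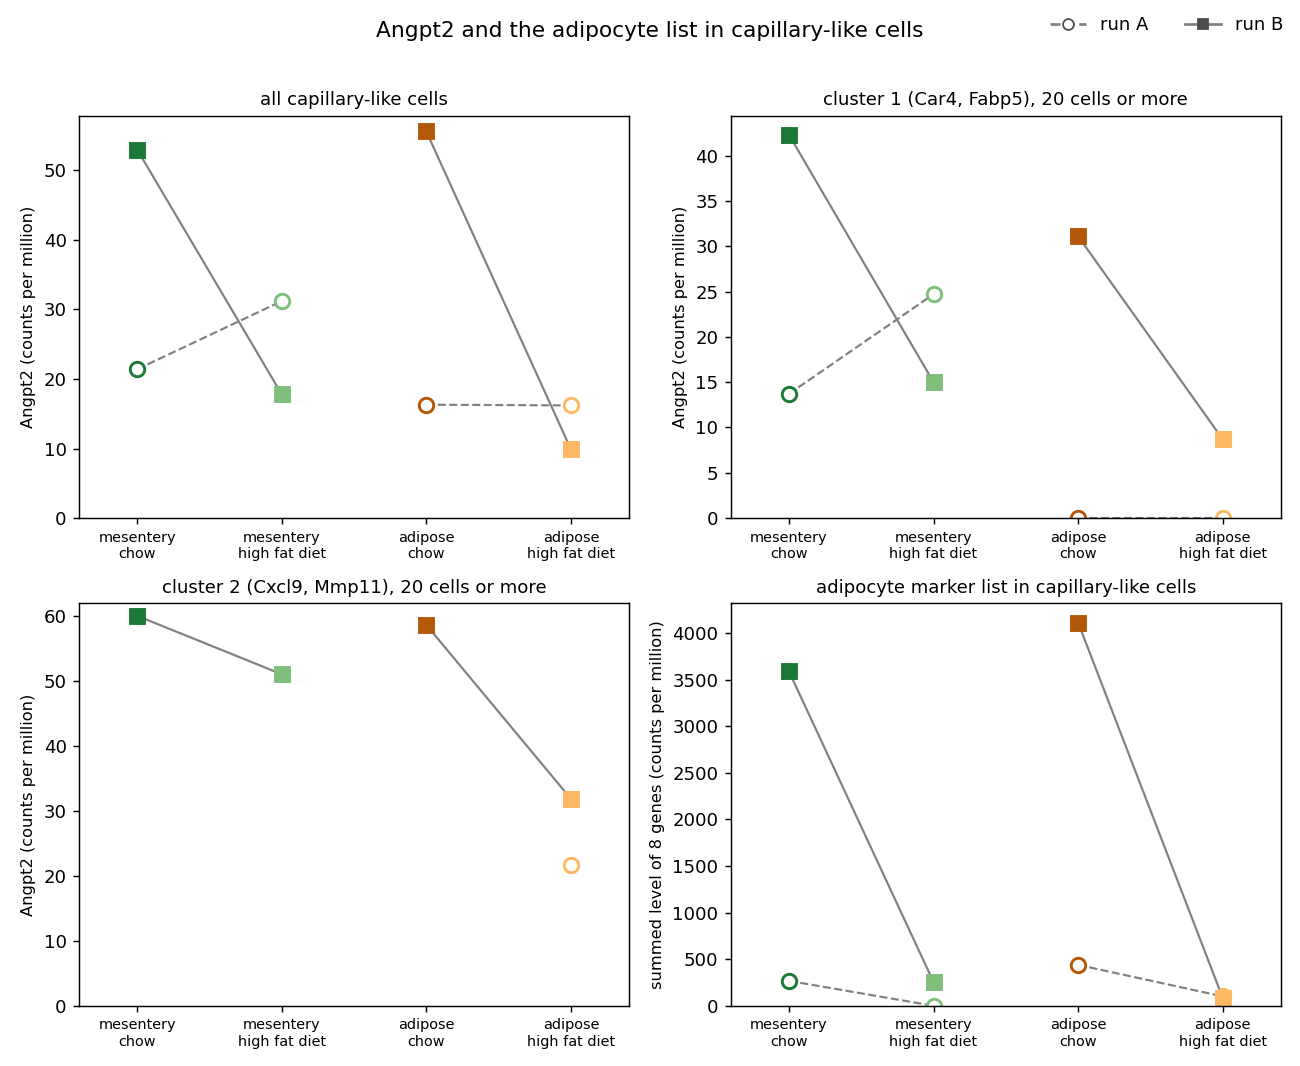
Angpt2 in CPM in all capillary-like cells, cluster 1 and cluster 2, and the summed level of 8 adipocyte markers in capillary-like cells (vertical axes), for the 4 groups (horizontal axis); points are libraries with at least 20 cells, open circles with dashed lines run A, filled squares with solid lines run B. In run B the chow libraries are above the high fat diet libraries in all 4 panels, and the run A values of Angpt2 rest on 2 to 4 UMIs per library in the class.

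In arterial-like and venous-like cells no angiopoietin or Tie gene passed an edgeR adjusted p of 0.05 in any comparison, with or without the block. In arterial-like cells the block called 72 genes for diet in mesentery (0.785%), 31 in adipose (0.338%), 66 for tissue on chow (0.72%) and 10 on the other diet (0.109%). In venous-like cells these counts were 15 (0.149%), 9 (0.0894%), 174 (1.73%) and 13 (0.129%), and without the block each of the 8 was 0 (0%). Angpt1 could be tested in blood endothelial and arterial-like cells only, and its highest arterial-like values were 13.3 and 11.2 CPM, both in run A libraries of adipose, from 4 and 3 UMIs. The run B libraries of the same groups had 3.9 and 3.0 CPM, from 16 and 10 UMIs.

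**Figure D5:**
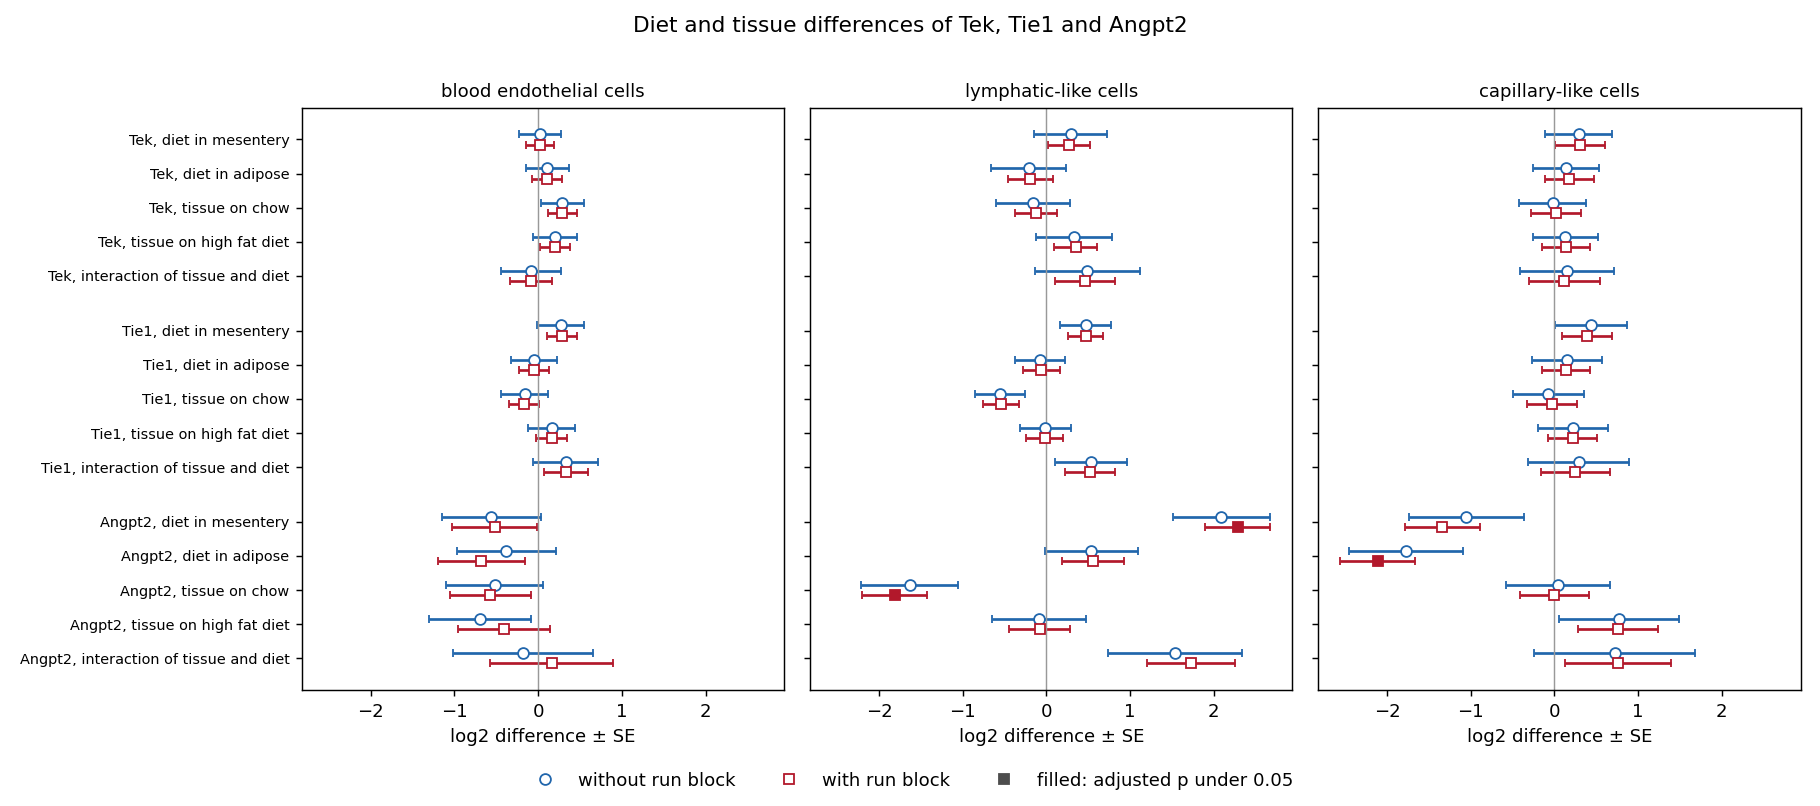
Log2 difference with its standard error (horizontal axis) of Tek, Tie1 and Angpt2 in 5 comparisons (vertical axis) in blood endothelial, lymphatic-like and capillary-like cells; diet is high fat diet over chow, tissue is mesentery over adipose, circles are fits without the run block and squares with it, and filled symbols passed an edgeR adjusted p of 0.05. Filled symbols appear for Angpt2 with the block only, for diet in mesentery (2.29) and tissue on chow (-1.81) in lymphatic-like cells and for diet in adipose (-2.11) in capillary-like cells.

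The other genes of the pathway form a list of 28, from the ligand Angpt4 and the phosphatase Ptprb through adaptors, PI3 kinase and AKT genes to the FOXO factors that the pathway restrains. In blood endothelial cells 26 of 28 could be tested and 0 were called in any of the 5 comparisons with or without the block, with median log2 differences of -0.06 to 0.14, beside -0.03 to 0.02 over all genes tested. In lymphatic-like cells 21 of 28 could be tested. With the block 1 was called higher on high fat diet in mesentery, the adaptor gene Shc1, at 1.15 ± 0.23 (edgeR adjusted p 0.0116, and 0.191 without the block), and 0 were called in the other 4 comparisons. That comparison called 2.26% of all genes tested as higher, so 1 of 21 is near the background. The list's median in that blocked comparison was 0.02, beside 0 over all genes tested.

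Ptprb was at 1265.0 to 2124.4 CPM in blood endothelial cells and at 147.6 to 338.0 CPM in lymphatic-like cells, with no overlap. Foxo1, a transcription factor that can drive Angpt2 when signalling through the Tek receptor is low, was at similar levels in both, 65.4 to 155.4 CPM and 73.3 to 147.1 CPM. Itga9, an integrin gene of lymphatic valves, was at 114.4 to 235.2 CPM in lymphatic-like and 13.5 to 77.1 CPM in blood endothelial cells, and Pear1, another receptor for SVEP1, at 114.9 to 203.6 and 44.9 to 82.0 CPM, both without overlap.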

How the data were processed

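Per the labels' protocols, YFP-positive cells of pooled tissue from 8 samples were sorted and made into 10x Genomics 3′ libraries. The deposited matrices hold UMI counts that the authors had not normalised; per the file headers the software version was 3.0.2 in run A and 5.0.0 in run B, and the submitters' processing notes name mm10 and Seurat 4.3.0. A barcode was kept when it had 500 UMIs and 300 genes or more and no more than 10% of mitochondrial counts (23970 of 27944). Scrublet's automatic threshold marked 57 cells, so a threshold set from the expected rate of 0.8% per 1000 barcodes was used instead, and 847 cells were removed.

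Cells were clustered with scanpy 1.11.5 and leidenalg 0.10.2 (2000 variable genes without the 5 genes and the pathway list, 30 components, 20 neighbours, resolution 1.0, runs aligned). A cluster was named, with "-like", where at least 3 markers were raised 1.5-fold and the mean log2 fold of the markers was at least 0.5. It stayed unnamed where its leading genes held more markers of another class. The same held where its UMIs were low and no marker of the class was among its leading genes. Unnamed endothelial clusters count among blood endothelial cells. Naming limits were set after clusters had been seen. Raw counts were summed per library and class (at least 20 cells) and tested with edgeR 4.0.16 (TMM, filterByExpr, 1 mean per group, quasi-likelihood). The standard error of a log2 difference was taken as its absolute size divided by the square root of the F statistic of the edgeR test. DESeq2 1.42.0 was an alternative. On simulated data for diet in mesentery in blood endothelial cells, 12850 genes tested, 74 of 100 genes changed 2-fold and 100 of 100 changed 4-fold were recovered, with 9 false calls. The simulation gave every gene the same preset spread between pools and every group the same run effect. The changed genes were drawn from those with enough counts in the smallest library. These shares therefore do not give the power of the tests on the real libraries.

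The labels describe run B as an independent repeat, and deviations from the group means correlated across genes between groups of the same run at 0.27 to 0.64 in 5 classes, so runs pair the samples. P-values measure the spread between pools. The 5 genes, lists, markers and tests were chosen with earlier results of these data known. Log2 differences are printed for every tested gene in blood endothelial cells, and elsewhere where the adjusted p passed 0.05 with or without the block, together with the companion comparisons that a passing one is read against. Of the 28 other pathway genes, called ones and 4 preset ones are named. Like genes are the 3 with the highest correlation among those with a mean of at least 10 CPM.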

Additional observations from a re-analysis of the deposited data

Results flagged for a closer look

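The sign of a Tie1 difference was opposite between groups, in both runs, in 3 cases. In blood endothelial cells the tissue difference of mesentery minus adipose was below 0 in both runs on chow, with a mean of -32.2 CPM, and above 0 in both runs on high fat diet. On chow mesentery and adipose were at 181.3 and 243.0 CPM in run A and 277.7 and 280.4 CPM in run B. On high fat diet they were at 246.3 and 244.3 CPM in run A and 308.3 and 244.1 CPM in run B. The gap was thus small in run B on chow and in run A on high fat diet. The interaction of tissue and diet for Tie1 there was 0.33 ± 0.39, with an edgeR adjusted p of 1, so the difference was not called. In venous-like cells the diet difference of high fat diet minus chow was above 0 in both runs in mesentery, with a mean of 33.1 CPM, and below 0 in both runs in adipose. In the same cells the tissue difference was below 0 in both runs on chow, with a mean of -28.4 CPM, and above 0 in both runs on high fat diet. No interaction was fitted in venous-like cells, so the opposition of signs was not tested. The diet and tissue differences of Tie1 there were each tested alone, and none was called with or without the block.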

How the results depend on the processing

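Only 2 pools stand behind each group, so a 2-fold change in a gene with as few UMIs as Angpt1 is beyond what these libraries can show. Without the run block, the edgeR test called 163 genes for tissue on chow in lymphatic-like cells and 0 genes in each of the other comparisons of the 5 classes. Comparisons follow below in the order diet in mesentery, diet in adipose, tissue on chow, tissue on high fat diet. The interactions in lymphatic-like and capillary-like cells, the fits without cluster 14 and the fits on named clusters were chosen after seeing the data. The cause of these changes was not tested.

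With the pairing by run (the replicate block) the calls were 4, 9, 26 and 1 in blood endothelial cells, 72, 31, 66 and 10 in arterial-like cells, 70, 119, 26 and 12 in capillary-like cells, and 15, 9, 174 and 13 in venous-like cells. In lymphatic-like cells the block gave 563 for diet in mesentery, 831 for tissue on chow and 10 for tissue on high fat diet. The block turned the Angpt2 interaction in blood endothelial cells to 0.16. Beside the 3 Angpt2 calls given with the results it changed no call of the 5 genes. On arterial-like, capillary-like and venous-like clusters alone, the block called 13, 13, 168 and 2 genes in blood endothelial cells, with Angpt1 at -0.41 for tissue on chow and Angpt2 at 0.10 for tissue on high fat diet, and with its interaction at 0.23. The same clusters without the block put Angpt1 at -1.24 for tissue on chow and 0.02 for the interaction. Without cluster 14 there were 0 calls for tissue on chow in lymphatic-like cells, and the block called, for diet, 207 in mesentery and 5 in adipose, 14 for tissue on high fat diet, and 8 in the interaction.

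DESeq2 called 1, 21, 51 and 2 genes and 1 for the interaction in blood endothelial cells, 2, 1, 16 and 4 in venous-like cells, and in lymphatic-like cells 102 for diet in mesentery, 268 for tissue on chow, 14 for tissue on high fat diet, and 10 in the interaction. Without a filter on low counts edgeR called 12, 10, 15 and 10 in arterial-like cells, 15, 33, 22 and 10 in capillary-like cells, 38, 25, 194 and 52 in venous-like cells, and 433, 14, 675, 86 and, for the interaction, 86 in lymphatic-like cells. Angpt2 in lymphatic-like cells also passed without the filter, with an edgeR adjusted p of 8.36e-05 for diet in mesentery and 0.00327 for tissue on chow, and for tissue on chow without mesentery on chow A (0.0411), where 1 pool is left in that group and is assumed to vary as the others do. At a clustering resolution of 2.0 the calls were 89 for tissue on chow in lymphatic-like cells. Mesentery on chow A held 15 capillary-like cells there, too few for the library to be used. That left 1 pool for mesentery on chow, so no calls are given for capillary-like cells at that resolution.

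No blood endothelial difference was called, and several small ones changed sign. Tek for diet in mesentery was 0.00 without the filter and -0.05 both with called doublets kept and with a mitochondrial limit of 20%. Tie1 for diet in adipose was 0.03 and 0.05 under the last 2 settings. Angpt1 was 0.21 for diet in adipose with doublets kept, and -0.04 with DESeq2 and -0.03 with the 20% limit for tissue on chow. With doublets kept and with the 20% limit no class was named mural-like, so the make-up of the classes differed from the main setting. Under the 20% limit a cluster of 1122 cells, with Notch3, Pdgfrb and Abcc9 among its leading genes, stayed unnamed. It counted among blood endothelial cells there.

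Leaving out 1 library at a time moved Angpt1 in blood endothelial cells from -1.75 to 0.62 with diet in mesentery, -2.25 to 0.63 with diet in adipose, -1.36 to 0.90 with tissue on chow and -1.44 to 1.52 with tissue on high fat diet, and its interaction from -1.47 to 1.49. Angpt2 there ran from -1.58 to 0.33 for diet in adipose, -1.41 to 0.52 for tissue on high fat diet and, as the interaction, -0.89 to 0.98 there and -0.59 to 1.75 in capillary-like cells. Tek ran from -0.13 to 0.12 and -0.02 to 0.26 for the diet differences and -0.27 to 0.05 for the interaction, and Tie1 from -0.07 to 0.00 for diet in adipose and -0.40 to 0.07 for tissue on chow. In venous-like cells calls for tissue ran from 0 to 3 on chow and 0 to 1 on the other diet. In lymphatic-like cells they ran from 0 to 1 for diet in mesentery and for tissue on high fat diet and from 0 to 203 for tissue on chow, with 0 when either adipose library on chow was left out, 99 when run A of mesentery on chow was and 16 when run B was.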
